A study of Homo sapiens with 4 samples.

Results

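Antisense lncRNA genes are long non-coding RNA genes named after the gene that lies opposite or next to them, with the suffix -AS and a number. They were taken from the transcript table of a YTHDC1 RIP-seq experiment as all rows whose gene name ends in -AS or in -AS and a number, without the names that begin with HOX. The rule gave 1151 transcripts of 505 gene identifiers, out of 75165 transcripts of 20298 genes. The 505 identifiers carry 504 symbols, since ASMTL-AS1 is listed once for each copy of its pseudoautosomal region, with the same 3 values both times. The letters before -AS name the sense gene, here VIM for VIM-AS1, and served for the comparison within pairs.

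RIP-seq sequences the RNA that is recovered with a protein by an antibody. YTHDC1 is the nuclear reader of m6A, a methyl mark on adenosines of RNA. All libraries came from MDA-MB-231, a triple negative breast cancer cell line, after lentiviral transduction with 3x flag-YTHDC1 at a multiplicity of infection of 4 and puromycin at 2 μg/ml for 4 days, with expression driven by the CMV promoter. The cells were crosslinked with 3 exposures to UV, nuclei were lysed, and 2 IP libraries (anti-flag antibody) and 2 input libraries (nuclear lysate) were made. The IP and input libraries therefore share the overexpression, and no library of unmodified cells is part of the comparison.

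The value used is the mean normalized count of a transcript over the 4 libraries together, as deposited. It carries no value, error or depth for a single library, so the totals below are given without an error, no test could be made, and 2 genes with close totals cannot be told apart. It also joins RNA recovered with YTHDC1 and RNA of the nuclear lysate in 1 number. The columns in which the table sets IP against input were not used, so the text does not say which antisense RNAs were higher in either. The counts are not divided by transcript length. A total is thus the yield of reads of a gene, and a ratio between genes is a ratio of reads and not of molecules. The library kit kept the strand, but whether the read counting used it is not stated. Without it, reads from stretches where genes overlap on opposite strands cannot be told apart. In RNA from many cells, fewer expressing cells and less RNA per cell cannot be told apart either.

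Defining genes of the labelled cell line were checked first. VIM reached 80785, AXL 63189 and EGFR 22483 normalized counts, genes that mesenchymal triple negative cells use, whereas CDH1, the epithelial cadherin, had 10.04, and TFF1, a target of the estrogen receptor, had 7.12. EPCAM, an epithelial surface protein, had 78.3 and GATA3, a factor of luminal cells, 584. ERBB2, the receptor whose amplification is absent from triple negative tumors, was listed at 4303, and PECAM1, an endothelial adhesion protein, at 102, so these markers were not low. The leukocyte gene PTPRC had 3.81. YTHDC1 itself had 55488, which checks no label because every library overexpresses it.

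Natural antisense RNAs are transcribed from the strand opposite to another gene. Some start beside the promoter of the sense gene and run away from it, some cross its body, and others meet it tail to tail. Members of this class are known to act on the sense gene in several ways, for example by pairing with its mRNA or by changing its chromatin, while many others have no known role. They are typically spliced, less abundant than mRNAs and often held in the nucleus.

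The start regions of 4 members are shown because these abundant genes differ widely in CpG content. Each is the window from 250 bases before to 50 bases after a RefSeq start site, 5′ to 3′ on the strand of the antisense gene, in build GRCh38.p14, and none lies within a protein-coding gene. Capitals mark CpG dinucleotides, in which the cytosine can be methylated.
WAC-AS1, chr10:28532305-28532604, minus strand: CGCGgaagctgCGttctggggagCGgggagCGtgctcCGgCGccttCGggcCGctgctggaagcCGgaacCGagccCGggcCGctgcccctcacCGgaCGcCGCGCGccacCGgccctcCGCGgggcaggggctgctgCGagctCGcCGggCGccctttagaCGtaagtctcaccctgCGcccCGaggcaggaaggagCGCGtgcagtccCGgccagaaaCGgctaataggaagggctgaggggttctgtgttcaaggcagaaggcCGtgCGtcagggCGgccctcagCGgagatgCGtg
OIP5-AS1, chr15:41283740-41284039, plus strand: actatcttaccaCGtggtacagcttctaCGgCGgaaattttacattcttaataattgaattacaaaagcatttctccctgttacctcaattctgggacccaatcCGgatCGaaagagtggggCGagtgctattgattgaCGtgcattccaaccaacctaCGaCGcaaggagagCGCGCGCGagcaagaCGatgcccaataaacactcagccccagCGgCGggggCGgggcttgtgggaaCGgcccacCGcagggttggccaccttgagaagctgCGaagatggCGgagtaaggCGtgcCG
VIM-AS1, the one of its 2 windows that lies outside VIM, chr10:17226849-17227148, minus strand: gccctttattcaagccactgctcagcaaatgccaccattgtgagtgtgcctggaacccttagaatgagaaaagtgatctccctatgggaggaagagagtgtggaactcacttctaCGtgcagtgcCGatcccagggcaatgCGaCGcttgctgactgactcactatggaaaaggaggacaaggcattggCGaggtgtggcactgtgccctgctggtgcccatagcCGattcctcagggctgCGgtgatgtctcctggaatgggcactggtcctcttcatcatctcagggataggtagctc
ATP2C2-AS1, chr16:84467312-84467611, minus strand: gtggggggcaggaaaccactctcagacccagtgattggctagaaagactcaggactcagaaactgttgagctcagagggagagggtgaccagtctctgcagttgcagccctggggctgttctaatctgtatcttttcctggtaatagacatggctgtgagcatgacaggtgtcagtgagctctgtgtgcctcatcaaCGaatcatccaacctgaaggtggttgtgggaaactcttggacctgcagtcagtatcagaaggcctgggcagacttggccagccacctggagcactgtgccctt
The windows hold 37 CpG in WAC-AS1, 23 in OIP5-AS1, 7 in VIM-AS1 and 1 in ATP2C2-AS1. Their GC content is 72.3% in WAC-AS1, 54.3% in OIP5-AS1, 54.3% in VIM-AS1 and 53.7% in ATP2C2-AS1, so the last 3 differ in CpG and hardly in GC. The other VIM-AS1 window, which overlaps VIM and lies at the 5′ end of the antisense gene, holds 20 CpG at a GC content of 68%. VIM-AS1 as a gene is thus not as poor in CpG as its printed window.

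Most antisense genes gave few reads and a small number gave many. The median gene total was 36.0 normalized counts, with quartiles of 11.9 and 114, and the highest was 3171. Of the 505 genes, 140 (27.7%) reached 100 normalized counts, 13 reached 1000 and 111 (22.0%) stayed under 10. The 20 highest genes held 39.0% of all antisense counts and the 100 highest held 77.7%. All antisense genes together made up 0.212% of the counts of the table. The median of the 340 genes named LINC, which lie between coding genes, was 23.0, and that of all 3143 genes of the type lncRNA without an antisense name, which include LINC genes, was 17.7. Over all 20298 genes of the table it was 227. The share of genes with at least 100 normalized counts was 19.4% among LINC genes and 14.9% among other lncRNA genes. The classes lay closer together at the level of single transcripts, where the median was 17.2 for antisense, 14.7 for LINC and 15.7 for other lncRNA genes. None of these differences was tested.

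**Figure D1:**
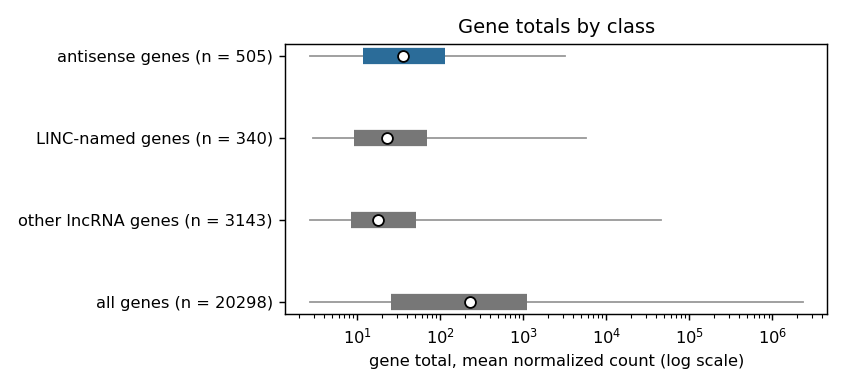
Gene totals (mean normalized count summed over the listed transcripts, log scale) of antisense, LINC-named, other lncRNA and all genes; thick bars run from the lower to the upper quartile, thin lines from the lowest to the highest gene, and circles mark medians. The median of the antisense genes (36.0) lies above those of LINC (23.0) and other lncRNA genes (17.7) and below that of all genes (227).

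VIM-AS1, opposite the gene of the mesenchymal filament protein vimentin, gave the highest total with 3171 normalized counts. Its transcript VIM-AS1-202 had 3113 and VIM-AS1-203 had 58.0, so 98.2% of the total was 1 isoform. AFAP1-AS1, which overlaps the gene of an actin filament-associated protein and is much studied in tumors, came next with 3134, of which AFAP1-AS1-201 held 2823. These totals cannot be ranked against each other without an error. Then came FGD5-AS1 with 2439, which in contrast to both was spread over 7 transcripts from 75.2 to 702. NOP14-AS1, named after a factor of ribosome assembly, had 1648 over 8 transcripts, and ENTPD1-AS1, named after the ectonucleotidase CD39, had 1389 over 8.

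Of the 20 highest genes, 3 had 1 listed transcript: ATP2C2-AS1 with 1528, FBXL19-AS1 with 1139 and DBH-AS1 with 903. WAC-AS1 had 1287, SLC9A3-AS1 1255, PAX8-AS1 1243 and PSMA3-AS1 1149 normalized counts. The sense genes of the last 3 encode a sodium-proton exchanger, a transcription factor of thyroid and kidney and a subunit of the proteasome. GABPB1-AS1 had 1105 and MRPL20-AS1, named after a protein of the mitochondrial ribosome, had 1099.5 normalized counts. The rest of the 20 ran from 937 in FLG-AS1 through ATP6V0E2-AS1, TMPO-AS1, ARHGEF35-AS1 and WARS2-AS1 to 794 in SVIL-AS1.

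**Figure D2:**
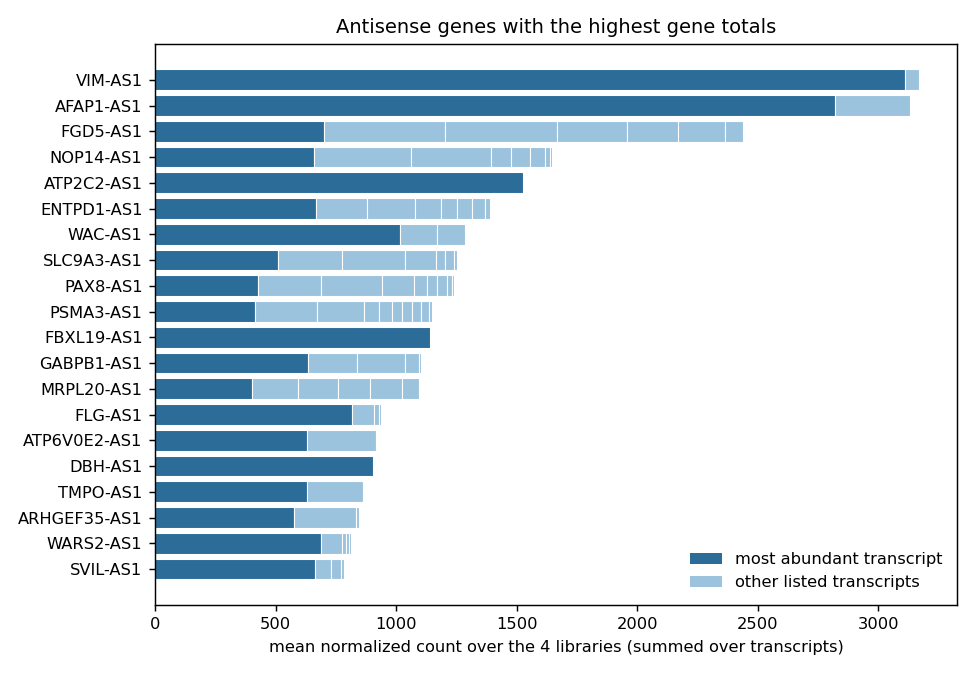
Mean normalized counts over the 4 libraries of the 20 antisense genes with the highest totals, each bar divided into the listed transcripts with the most abundant in dark blue. VIM-AS1 (3171) and AFAP1-AS1 (3134) rest almost wholly on 1 transcript, while FGD5-AS1 (2439) is divided over 7.

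At the other end, 79 antisense transcripts had fewer than 5 normalized counts. The 3 lowest belonged to DOCK8-AS1 with 2.72, SRD5A3-AS1 with 2.93 and TSBP1-AS1 with 2.95. The lowest value of the whole table was also 2.72, since transcripts that did not reach 5 reads in 50% of the libraries had been removed by the authors.

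Antisense genes more often had several listed transcripts than other lncRNA genes, 241 of 505 (47.7%) against 613 of 3143 (19.5%), a difference that was not tested. This trait is not particular to antisense genes. The 340 LINC genes had 727 listed transcripts, per gene close to the 1151 of the 505 antisense genes and above the 4829 of the 3143 other lncRNA genes. A single transcript was listed for 264 genes, 2 or more for 241 and 5 or more for 63, with NUTM2A-AS1 (17), ZNF213-AS1 (12), TPT1-AS1 (11), PAX8-AS1 (10) and PSMA3-AS1 (10) at the top. In the genes with at least 2, the most abundant transcript held a median of 56.5% of the total, against 59.2% in the 613 other lncRNA genes of this kind. In ZNF213-AS1 the leading transcript held 21.7% (65.0 of 299 normalized counts). In NUTM2A-AS1 it held 35.1% (194 of 554), but this gene has close relatives and its reads could have been divided among copies. As reads that fit several isoforms were shared out by an estimate, the division within a gene is less certain than its total.

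By annotation, 1082 of the 1151 transcripts were lncRNA, 40 retained introns and 25 processed transcripts. The last 4 were of the type TEC, which awaits experimental evidence. Retained-intron transcripts held 3.97% of the antisense counts. The most abundant transcripts of SLC9A3-AS1 (511 of 1255 normalized counts) and of MRPL20-AS1 (403 of 1099.5) were of this type. A further 8 genes were annotated as transcribed pseudogenes despite their antisense names. SVIL-AS1 with 794, EMC3-AS1 with 716 and TP73-AS1 with 593 normalized counts were the highest of these. Where a pseudogene shares reads with a similar gene, they could have been counted for either.

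For 456 antisense symbols the sense gene was listed as well, and 453 of the sense genes were protein-coding. The other 48, FGD5-AS1 among them, were left out of the pairs. The antisense gene gave fewer reads than its sense gene in most pairs. The median log2 ratio of antisense to sense was -4.63, with quartiles of -6.54 and -2.19. At this median ratio the antisense total was 4.04% of the sense total. In 286 pairs (62.7%) it was below 10% and in 108 below 1% of the sense total. The antisense gene was the higher one in 46 pairs (10.1%), by at least 4-fold in 19.

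VIM-AS1 shows how both can be high, since its 3171 normalized counts stood against 80785 of VIM, a log2 ratio of -4.67. Among the 117 pairs with both totals at 100 or more, low log2 ratios were those of SRRM2-AS1 (-8.89), opposite a scaffold protein of nuclear speckles, and of NAV2-AS2 (-7.92), DNMBP-AS1 (-7.86) and RNF213-AS1 (-7.29). These 4 genes had 103 to 183 normalized counts, while their sense genes lay between 24958 and 61487. With the antisense total held at 100 or more, a ratio this low can occur only where the sense total is very high.

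Where the antisense gene was higher, the sense gene was mostly low, which follows in part from the low totals of most antisense genes. DBH-AS1 had 903 normalized counts and DBH, the enzyme that makes noradrenaline, had 20.2, the largest log2 ratio of all pairs (5.48). ENTPD1-AS1 stood at 1389 against 59.4 of ENTPD1 (log2 ratio 4.55). ATP2C2-AS1 stood at 1528 against 77.8 of ATP2C2, a calcium pump of the secretory pathway (log2 ratio 4.30). In 28 of the 46 pairs the sense total was below 100. With both totals at 100 or more, 18 of 117 pairs had the antisense gene higher, and the largest log2 ratio was 2.83 in SLC9A3-AS1 (1255 against 176). It was followed by OIP5-AS1, known as cyrano and for its site for the microRNA miR-7, with 686 against 114 of OIP5 (log2 ratio 2.59). PAX8-AS1 (2.17), ARHGEF35-AS1 (1.93), NUTM2A-AS1 (1.56), GABPB1-AS1 (1.53), TP73-AS1 (1.27), WARS2-AS1 (1.23), PSMA3-AS1 (0.92) and C1RL-AS1 (0.74) made up the rest of the 10 highest log2 ratios.

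**Figure D3:**
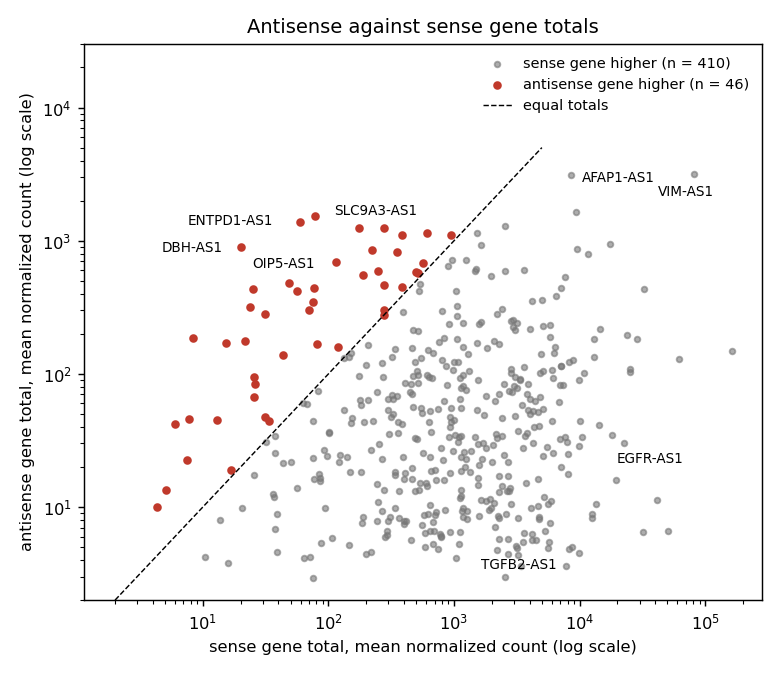
Antisense against sense gene totals (mean normalized counts, both axes log) of 456 pairs, with pairs whose antisense gene was higher in red; the dashed line marks equal totals. The 46 red pairs lie to the left, all at sense totals below 1000 normalized counts, a level that only 13 antisense genes reach.

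The total of an antisense gene bore almost no relation to that of its sense gene. Spearman's rho over the 456 pairs was 0.035, a description across genes that share the libraries and are not corrected for length. In the 114 pairs with the lowest sense totals (4.33 to 298 normalized counts) the median antisense total was 39.3. It was 43.5 in the next 114 pairs, 33.6 in the third and 50.9 in those with the highest sense totals (3148 and above). Antisense genes with at least 100 normalized counts numbered 32, 30, 32 and 39 in these 4 groups. The antisense gene was higher in 38 pairs of the lowest group, in 8 of the next and in 0 of the 114 pairs in each of the others. These groups are cut by the sense total, which is also the denominator of the ratio. Only 13 antisense genes reached 1000 normalized counts and the highest had 3171. Groups with sense totals of 1007 and above thus left little room for a higher antisense gene, whatever the relation within pairs.

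For 8 sense genes, 2 antisense genes were listed. Totals of the 2 were closest in PAXIP1 (PAXIP1-AS2 with 326 and PAXIP1-AS1 with 272) and differed by 24.9-fold in WDFY3 (WDFY3-AS2 with 188 and WDFY3-AS1 with 7.54), with a median of 2.53-fold. HIF1A, the oxygen-regulated transcription factor, had HIF1A-AS3 with 227 and HIF1A-AS1 with 106 normalized counts. PTOV1-AS2 had 600 and PTOV1-AS1 112.

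RefSeq positions in GRCh38.p14 were found for 492 of the 504 symbols, 38 of them under another name, and both genes of the pair could be placed with their strand for 329. In 120 of these the 5′ parts of the genes overlapped, as in VIM-AS1 (chr10:17214239-17229985, minus strand), which overlaps the start of VIM (chr10:17228241-17237593, plus strand) by 1745 bases. In 66 the genes did not overlap and their 5′ ends faced each other, so that they ran apart, as WAC-AS1 (chr10:28519917-28532354) does, whose start lies 425 bases from that of WAC. In 70 the antisense gene lay wholly within the sense gene, as SLC9A3-AS1 and PAX8-AS1 do. In 57 the 3′ parts overlapped, as in OIP5-AS1 (chr15:41282697-41313338) and NOP14-AS1, in 11 the sense gene lay within the antisense gene, as FLG lies within FLG-AS1, and in 5 the 3′ ends faced each other without overlap, as in FGD5-AS1.

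Antisense genes overlapping at 3′ ends had a median of 83.8 normalized counts and 26 of 57 (45.6%) reached 100. Those overlapping at 5′ ends had a median of 39.7 and 34 of 120 (28.3%) reached 100. The median was 50.5 in genes running apart, of which 19 of 66 (28.8%) reached 100, and 26.1 in genes within the sense gene, of which 13 of 70 (18.6%) did. In the smallest sets it was 69.7 where the sense gene lay within the antisense gene, with 5 of 11 at 100 or more, and 554 where 3′ ends faced each other, with 4 of 5. The log2 ratio to the sense gene had medians of -3.18 for overlap at 3′ ends, -4.48 for overlap at 5′ ends, -5.03 for genes running apart and -5.95 for genes within the sense gene. It was -0.09 in the 7 pairs with the sense gene inside and -2.12 in the 4 pairs with 3′ ends facing. The spread within each arrangement was wide, from 2.72 to 1255 normalized counts in genes within the sense gene and from 4.20 to 1648 in those overlapping at 3′ ends, and these differences were not tested. Genes within the sense gene also had the highest sense totals, with a median of 1949 normalized counts, and the medians of the other arrangements ran from 356 to 966. If the strand was not used, reads of the 2 genes could be mistaken wherever the genes overlap, in exons or in introns.

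Start sites of antisense and sense gene lay within 1000 bases of each other in 178 of the 329, with a median antisense total of 36.7 normalized counts, against 47.1 in the 151 with starts further apart. Where the antisense start lay upstream of the sense start within this distance, the antisense gene was higher in 1 of 104 pairs. Where it lay downstream, it was higher in 8 of 70. The median sense totals of these sets were 1118 and 863 normalized counts.

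**Figure D4:**
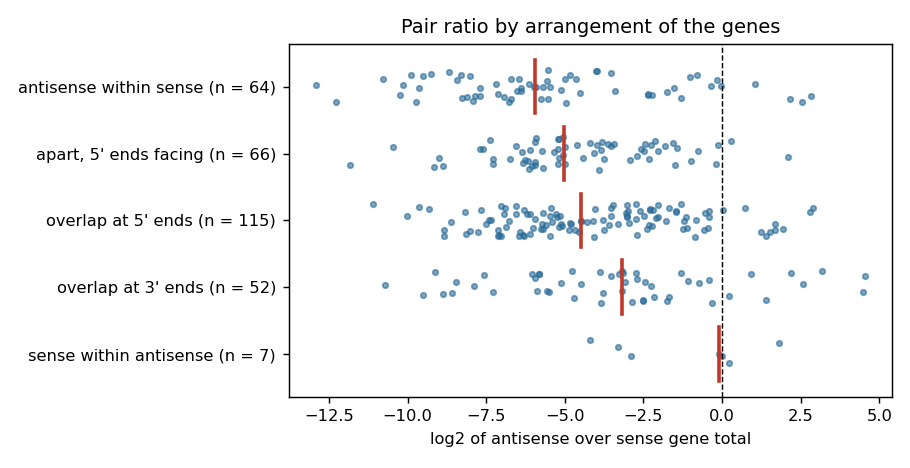
Log2 ratio of antisense to sense gene total for pairs placed in RefSeq, by arrangement (the 4 pairs with 3′ ends facing are not drawn); each point is 1 pair, red lines are medians and the dashed line marks equal totals. Medians run from -5.95 in genes within the sense gene to -3.18 in genes overlapping at 3′ ends and -0.09 in the 7 pairs with the sense gene inside, and the points of all arrangements overlap widely.

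The start regions of antisense genes were rich in CpG. A window of 300 bases around the start was given for 373 members, 434 windows in all. The median GC content was 64.3% and the median number of CpG was 22, as against 62.3% and 21 in 22156 windows of protein-coding genes and 47.7% and 4 in 1742 windows of LINC genes. The antisense windows are of genes listed here, whereas the protein-coding, LINC and all windows take RefSeq genes whether listed or not. The LINC windows belong to 1580 genes, against 340 listed ones. Gene class and detection in these cells therefore cannot be told apart in this comparison. CpG-rich windows, with a GC content of at least 50% and at least 0.6 of the CpG expected from base composition, made up 64.5% of the antisense windows, 60.0% of the protein-coding, 15.5% of the LINC and 46.9% of all windows. The 558 windows of the members' sense genes were close to the antisense windows. Of these, 65.4% were CpG-rich, with medians of 64.3% GC and 23 CpG. Among the 4 windows printed above, those of WAC-AS1 and OIP5-AS1 are of this kind and those of VIM-AS1 and ATP2C2-AS1 are not. The other VIM-AS1 window, with 0.58 of the expected CpG, falls just short.

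CpG-rich windows were more frequent where the antisense and sense genes start close together. In 112 antisense genes a window shared bases with a window of the sense gene, and 90.5% of their 137 windows were CpG-rich. In the 217 whose windows lay apart from those of the sense gene, 54.6% of 249 windows were. The motif TATAAA, read on both strands, was found in 6.91% of the antisense windows against 11.5% of all windows, and CCAAT, read on both strands, in 28.8% against 34.6%. In windows of protein-coding genes TATAAA was found in 9.46% and in those of the sense genes in 9.50%. These shares do not allow for base composition, and the median GC content was 64.3% in antisense windows and 58.7% in all windows. Such a match is a string of letters and not a bound site. The 242 genes with a CpG-rich window had a median total of 53.2 normalized counts, and 87 (36.0%) reached 100. The 131 genes without one had a median of 30.2, and 30 (22.9%) reached 100, VIM-AS1 and ATP2C2-AS1 among them.

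**Figure D5:**
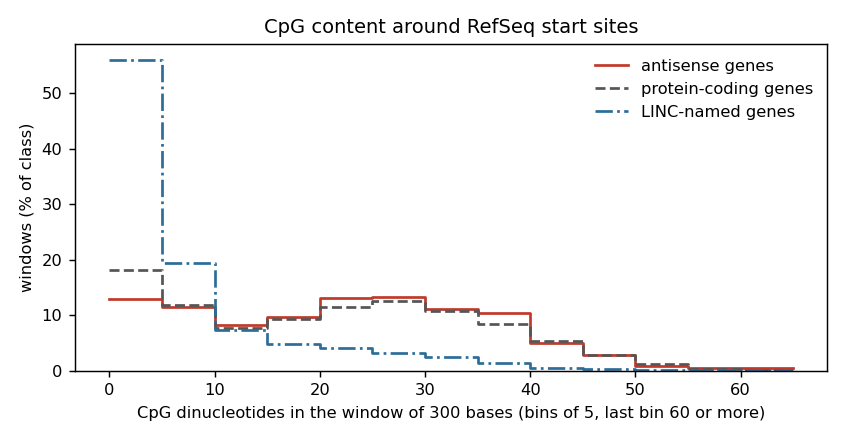
Number of CpG dinucleotides in windows of 300 bases around RefSeq start sites, as the percentage of windows of each class in bins of 5. The curve of antisense genes (median 22) follows that of protein-coding genes (median 21), while windows of LINC genes (median 4) pile up at the lowest bin. Only the antisense windows are limited to genes listed in these data.

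The antisense genes were also sorted by the first letters of the sense gene symbol, so each family below holds only the genes that its letters found and is not complete. The letters of transcription factor families found 15 genes with a median of 152 normalized counts, of which 8 (53.3%) reached 100, against 27.8% of all 504 symbols. Without the 3 named after PAXIP1 and PAXBP1, which are not PAX factors, the median was 99.1 and 6 of 12 reached 100, with 35.9 as the median of all antisense symbols. Besides PAX8-AS1 they included NR2F1-AS1 with 294, GATA2-AS1 with 152 and SNAI3-AS1 with 316, the last against 23.6 of SNAI3. These and the other genes of this and the next 2 paragraphs that are not in the lists of highest totals or ratios were named after their values were seen. Antisense genes of 18 zinc finger genes had a median of 47.0, 4 reached 100, and 2 were higher than their sense gene, ZNF528-AS1 (685 against 567) and ZNF213-AS1 (299 against 279).

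The letters chosen for RNA processing factors found 7 antisense genes and not, for example, SRRM2-AS1 or NOP14-AS1, which both passed 100 normalized counts. Of these 7, PCBP1-AS1 reached 100 (386 against 6493 of PCBP1, a poly(C)-binding protein), and the median log2 ratio to the sense gene was -6.25. YTHDF3-AS1, opposite a cytoplasmic m6A reader, had 12.9, and RBM15-AS1, opposite a protein of the m6A methyltransferase complex, had 8.90. Of 14 antisense genes of TGF-beta, EMT and matrix genes, 5 reached 100. One of them, LAMTOR5-AS1 (279), entered by its first letters and is named after a lysosomal scaffold. Of those named after ligands, TGFB2-AS1 had 4.95 against 3148 of TGFB2 and TGFB3-AS1 had 5.85 against 107 of TGFB3. ZEB1-AS1, beside a repressor of epithelial genes, had 156 against 1823 of ZEB1 (log2 ratio -3.55). Among integrins, ITGB2-AS1 had 142, ITGA6-AS1 61.8 and ITGA9-AS1 46.0, and only the last was above its sense gene (7.72). LAMA5-AS1 had 6.45 against 32132 of LAMA5.

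Of 8 antisense genes of cell cycle and repair genes 3 reached 100, namely TMPO-AS1 (863), MCM3AP-AS1 (534) and KIF9-AS1 (345). Of 10 named after solute carriers 3 did as well, SLC9A3-AS1, SLC25A25-AS1 (615) and SLCO4A1-AS1 (422). The stems chosen for mitochondrial genes gave 12, with 6 at 100 or more, but some of these, ATP2C2-AS1 and ATP6V0E2-AS1 among them, are named after pumps of other membranes. The 6 named after mitochondrial proteins had a median of 266 normalized counts. The 3 of them that reached 100 were MRPL20-AS1, NNT-AS1 (596), opposite a proton-pumping transhydrogenase, and COX10-AS1 (476), opposite an enzyme that makes heme for cytochrome c oxidase. The 3 that did not were NDUFB2-AS1 (56.2), NDUFV2-AS1 (15.3) and MRPS9-AS1 (6.65), named after proteins of complex I and of the mitochondrial ribosome.

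Of 32 antisense RNAs with a known role or much studied in cancer, 22 were listed and 16 of these had at least 100 normalized counts. The median was 244 over the 22, against 36.0 over all antisense genes. The list was chosen with earlier results of these data known and holds genes of the highest totals, such as VIM-AS1 and AFAP1-AS1. This difference therefore cannot show that studied antisense RNAs are more abundant. BACE1-AS, known to stabilise the mRNA of the beta-secretase BACE1, had 242 normalized counts against 3167 of BACE1, of which the retained-intron transcript BACE1-AS-203 held 226. MAPKAPK5-AS1 had 247, FOXD2-AS1 302 and SBF2-AS1 170. FOXD2-AS1 was above its sense gene FOXD2 (70.3), and GABPB1-AS1 and OIP5-AS1, already given, were too. Below 100 were SPRY4-AS1 (67.0), DDX11-AS1 (65.3), LOXL1-AS1 (65.1), EGFR-AS1 (30.0), RHPN1-AS1 (17.5) and TGFB2-AS1. EGFR-AS1 stood against 22483 of EGFR, the receptor of epidermal growth factor (log2 ratio -9.55). The other 10 were not analysed here.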

How the data were processed

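MDA-MB-231 cells that overexpress Flag-tagged YTHDC1 were profiled by RIP-seq in 2 IP and 2 input libraries. The authors mapped reads with STAR (2.7.2b, per the labels) to a transcriptome with GENCODE v33 annotations (GRCh38), estimated reads per transcript with RSEM (1.2.31), removed transcripts that fell short of 5 reads in 50% of the libraries, adjusted for batches with RUVSeq and applied DESeq2. The signal used here is a deposited column, the normalized count of a transcript averaged over the 4 libraries. RSEM splits reads among isoforms, and depth per library is unknown. The table's fold changes, standard errors, p-values and adjusted p-values are the authors' own comparison and were not used, so no test was run.

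Totals were summed over the listed transcripts of a gene identifier. Of the 505 identifiers, 502 were found in a table of gene names. Spans came from RefSeq (GRCh38.p14), strands and start sites from its promoter windows. A comparison per length was not possible without transcript lengths. Genes were named by rule (the 20 highest totals, the 10 highest and 5 lowest ratios with both totals at 100 or more, the 5 genes with most transcripts, the 3 lowest transcripts and the 32 studied RNAs), and some of the genes so chosen are not reported here. Members and lists were chosen with earlier results of these data known. Tables were handled with pandas 2.3.3 and numpy 2.4.6 in Python 3.11.15, plots came from matplotlib 3.10.9, and the pairing and ratio steps were tested on simulated data. Alternatives were other filters, thresholds, member rules and gene levels.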

Additional observations from a re-analysis of the deposited data

How the results depend on the processing

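Of 20 alternative values, 12 stayed close to the reported one and 8 moved. A change of direction was looked for only in the median log2 ratio of antisense to sense, which stayed negative in each alternative. With transcripts of at least 10 normalized counts the median antisense transcript rose from 17.2 to 30.7. The share of antisense transcripts past the threshold was 24.5% at 50 and 6.52% at 200 normalized counts, against 12.7% at 100. The median log2 ratio of antisense to sense was -3.86 in the 357 pairs with both totals of at least 10 and -2.59 in the 117 with both of at least 100, where the antisense gene was higher in 18 (15.4%), as these filters remove pairs with a low total. With the most abundant transcript in place of the sum, the median log2 ratio was -4.10 and 50 pairs had the antisense gene higher. In genes with at least 3 listed transcripts the leading one held a median of 47.5% of the total. Chosen after the values were seen, leaving out symbols that only share their first letters with a family lowered the median of the transcription factor group from 152 to 99.1 and left those of the matrix and mitochondrial groups within 1.5-fold. No value per library was used, so leaving out a library was not possible and replicate error is unknown. No paired analysis was possible because the values are means over all libraries and no test was run. Correction for length was not run for want of transcript lengths.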
